A study of Homo sapiens with 30 samples.

Results

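The regions described here are LARP6 iCLIP peaks whose centre lay within the first 100 coding nt of an mRNA and more than 50 nt from the 5' end of the transcript. Each gene was represented by its Ensembl canonical protein-coding transcript (GENCODE release 44, GRCh38), peaks had to lie on the strand of the gene, and mitochondrial transcripts were left out. In the lists of full-length LARP6 (FL) and of the deletions ΔNTR and ΔCTR, 915 peaks met this rule, 317 of the 14334 FL peaks, 358 of the 17180 ΔNTR peaks and 240 of the 15870 ΔCTR peaks. They lay in 590 genes. Over all 5 deposited lists there were 48311 peaks, and the 2 remaining lists contributed 10 (ΔLa-module) and 6 (ΔNTD) peaks at such positions.

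The protein LARP6 is best known as a binder of a conserved stem-loop that surrounds the start codon of type I and type III collagen mRNAs. The beginning of a coding sequence is where the scanning ribosome starts translation and where the N terminus of the protein is encoded, including the hydrophobic signal sequences that direct secreted and membrane proteins to the endoplasmic reticulum. iCLIP crosslinks protein to RNA with UV light in living cells and reads the position of the contact from the end of the cDNA.

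All samples came from U-87 MG, an established glioblastoma line. The 5 variant lines were stable lines made with a lentiviral, doxycycline-inducible vector, and carried myc-tagged LARP6: FL, deltaNTR (disordered N-terminal region removed), deltaLa-module (the folded RNA-binding part removed), deltaNTD (both of these removed) or deltaCTR (C-terminal region removed). Induction was 60 ng/mL doxycycline for 24 h, the cells kept their own LARP6 gene, and parental cells without a transgene were the negative control. Each of the 6 lines had 3 iCLIP samples, and the peaks of the 3 were merged by the authors into 1 list per variant. Each line also had 1 input library of paired 150 nt reads (PE150) and 1 of single 50 nt reads (SE50).

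The score of a peak is the deposited value summed over the 3 replicates, and 3 was the lowest score in any list. Because replicates were merged, no spread between them could be computed, no difference below was tested against it, and the intervals of 95% cover counting error only. Depth of the iCLIP libraries is unknown here, and the PE150 inputs held 25027075 to 28692476 counts in genes. The input carried mesenchymal markers, and markers of glia or glioblastoma were uneven. Among the latter, VIM at 7070 CPM (counts scaled to library size) and CD44 at 2110 were high in the FL line. NES was at 51.9 to 56.1, CHI3L1 at 84.5 to 112 and OLIG2 at 1.47 to 2.3 CPM in the parental, FL, ΔNTR and ΔCTR lines. GFAP, SOX2 and S100B were at or below 0.24 CPM in these lines. Of the mesenchymal markers, the matrix gene FN1 was at 5050 CPM in the FL line, COL1A1 at 733, COL1A2 at 684 and SPARC at 587. Of the neuronal markers, SNAP25 was at 58.4 to 65.6, SYP at 0.859 to 1.37 and RBFOX3 at or below 0.15.

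The sequences under strong sites show what kind of RNA was crosslinked. These 11 are among the highest-scoring sites and are all described further on. Each line gives 30 nt of GRCh38, on the strand of the gene and inside a coding exon, around the centre of the highest peak at that site. Capitals mark the longest unbroken run of C and T, since pyrimidine tracts are a common feature of RNA-binding sites. Sites are peaks of the 3 lists joined when they shared at least 1 nt.
YWHAE, chr17:1400074-1400103, minus strand: atcgagaggaTCTggtgtaccaggcgaagc
SLC20A1, chr2:112646912-112646941, plus strand: cttcattattgcatttgtcttggcaTTCTC
FOSL1, chr11:65900293-65900322, minus strand: ggaacccggcccgagCTCCgggaacggcgg
FA2H, chr16:74774662-74774691, minus strand: ccggcgcgtgctgggTCCgccgcggggccc
KCNMA1, chr10:77637534-77637563, minus strand: gcaatatccacgcgaaccaTCTCagcctag
NT5DC2, chr3:52533648-52533677, minus strand: gggccgcgagccgcctcgtcctcgCCCTCC
S100A6, chr1:153535302-153535331, minus strand: ccccctggatcaggccattggCCTCCTCgt
WDR1, chr4:10116196-10116225, minus strand: tcgccagCCTCCCgcaggtggagaggggcg
COL5A1, chr9:134642256-134642285, plus strand: gctgctgctgctgctgtgggcgccgCCTCC
MMP2, chr16:55479554-55479583, plus strand: ccacgccgccgccgcgccgtcgCCCatcat
COL1A2, chr7:94395048-94395077, plus strand: atacgcggaCTTTgttgctgcttgcagtaa
The runs in capitals were 3 to 7 nt long in these 11 sequences, longest at S100A6. C and T made up 36.7% of the 30 nt at YWHAE, 73.3% at SLC20A1 and 53.3% at FA2H, so these strong sites did not share a base composition.

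A second set shows sites whose printed sequence held the initiation site, with the start codon in capitals. These are 6 of the highest sites whose 30 nt held the whole start codon in 1 exon. The 30 nt span the junction of the 5'UTR and the coding sequence. At PIGG the site itself (chr4:499338-499355) began on the last base of the start codon.
VIM, chr10:17229410-17229439, plus strand: accctccgcagccATGtccaccaggtccgt
POLDIP2, chr17:28357434-28357463, minus strand: gcgctcgggcgggacATGgcagcctgtaca
FN1, chr2:215435787-215435816, minus strand: cccaccgtctcaacATGcttaggggtccgg
PDE12, chr3:57556373-57556402, plus strand: caggttcATGtggaggctcccaggcgcccg
UBA2, chr19:34428423-34428452, plus strand: ttgtcccgccATGgcactgtcgcgggggct
PIGG, chr4:499332-499361, plus strand: cacgATGcggctgggctccgggactttcgc
Peaks covering the start codon were a minority. They numbered 41 of 317 in FL (12.9%), 43 of 358 in ΔNTR (12%) and 32 of 240 in ΔCTR (13.3%).

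Fewer peaks lay at the start of coding sequences in ΔCTR than in FL, although the ΔCTR list was longer. The count fell from 317 (exact Poisson interval 283 to 354) in FL to 240 (211 to 272) in ΔCTR, a ratio of 0.757 (exact binomial interval 0.638 to 0.898), while the whole ΔCTR list was 1.11 times the FL list. In ΔNTR the count was 358 (322 to 397), a ratio of 1.13 (0.968 to 1.32) against 1.2 for the whole list. As a share of each list, these peaks were 2.21% of FL (Wilson interval 1.98 to 2.47), 2.08% of ΔNTR (1.88 to 2.31) and 1.51% of ΔCTR (1.33 to 1.71). The ΔCTR and FL intervals do not overlap, and the ΔNTR and FL intervals do. With a window of 50 coding nt the ΔCTR ratio was 0.82 (0.641 to 1.05), an interval that includes 1, and with 200 nt the ΔNTR ratio was 1.15 (1.03 to 1.28), an interval that does not.

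The neighbouring regions place this difference along the mRNA. Peaks in the 5'UTR, more than 50 nt from the 5' end, numbered 401 (FL), 466 (ΔNTR) and 266 (ΔCTR), and the ΔCTR ratio to FL was 0.663 (0.566 to 0.776). Within 50 nt of the 5' end the ratio was 0.749 (0.607 to 0.923). Coding sequence after nt 100 behaved otherwise, with 4700, 5781 and 5446 peaks and a ΔCTR ratio of 1.16 (1.11 to 1.21), and the 3'UTR had a ratio of 1.18 (1.14 to 1.22). The start of the coding sequence thus had a ΔCTR ratio with an interval below 1, as the 5'UTR did, and below that of the later coding sequence.

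**Figure D1:**
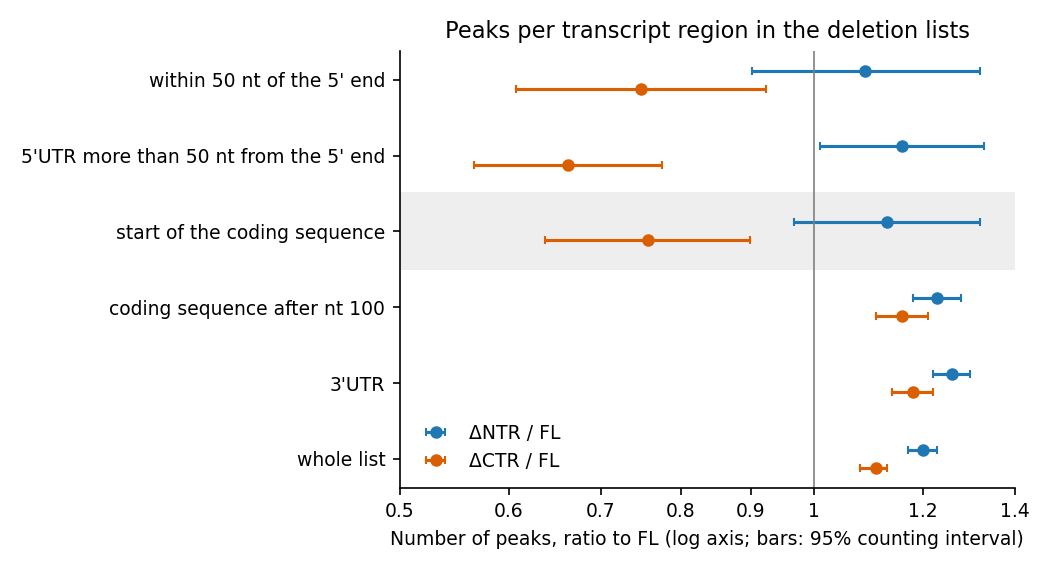
Number of peaks in ΔNTR and ΔCTR relative to FL, by transcript region; points are ratios on a log axis, bars are 95% exact binomial intervals for counting error, and the shaded band is the start of the coding sequence. The ΔCTR points of the first 3 regions lie between 0.663 and 0.757, and those of later coding sequence and 3'UTR at 1.16 and 1.18.

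The ΔCTR to FL ratio was also computed by length of the coding sequence. Where the coding sequence was under 1000 nt, 136 FL, 145 ΔNTR and 79 ΔCTR peaks lay at its start, a ΔCTR ratio of 0.581 (0.435 to 0.772). Where it was 1000 nt or longer the counts were 181, 213 and 161, a ratio of 0.89 (0.715 to 1.11) whose interval includes 1. The intervals of the short and long classes overlap, and the difference between the classes was not tested. In the same short mRNAs later coding peaks had a ΔCTR ratio of 1.18 (1.06 to 1.31). In the 5'UTR the order of the classes was the opposite, with 0.743 (0.543 to 1.01) in short and 0.637 (0.528 to 0.766) in long ones.

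Density per nucleotide compares the start with the rest of the same coding sequence. It was computed in 6423 genes with at least 10 CPM in the FL input and at least 1000 coding nt. FL had 284 peaks per Mb in the first 100 coding nt and 287 in the coding sequence from there to nt 1000, a density ratio of 0.99 (0.843 to 1.16). ΔNTR had 336 and 339, a ratio of 0.989 (0.853 to 1.14). ΔCTR had 257 and 334, a ratio of 0.769 (0.65 to 0.905). In FL and ΔNTR the start and the interior of the coding sequence thus had similar densities, with intervals that include 1, and in ΔCTR the start was less densely occupied. In steps of 100 nt the ΔCTR to FL ratio of peak numbers was 0.678 (0.519 to 0.884) in the last 100 nt of the 5'UTR and 0.592 (0.394 to 0.878) in the step before it. It was 0.903 (0.724 to 1.13) in the first 100 coding nt, 0.955 and 1.02 in the next 2 steps and 1.28 (1.05 to 1.57) in nt 301 to 400, so it rose along the mRNA from the 5'UTR into the coding sequence.

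**Figure D2:**
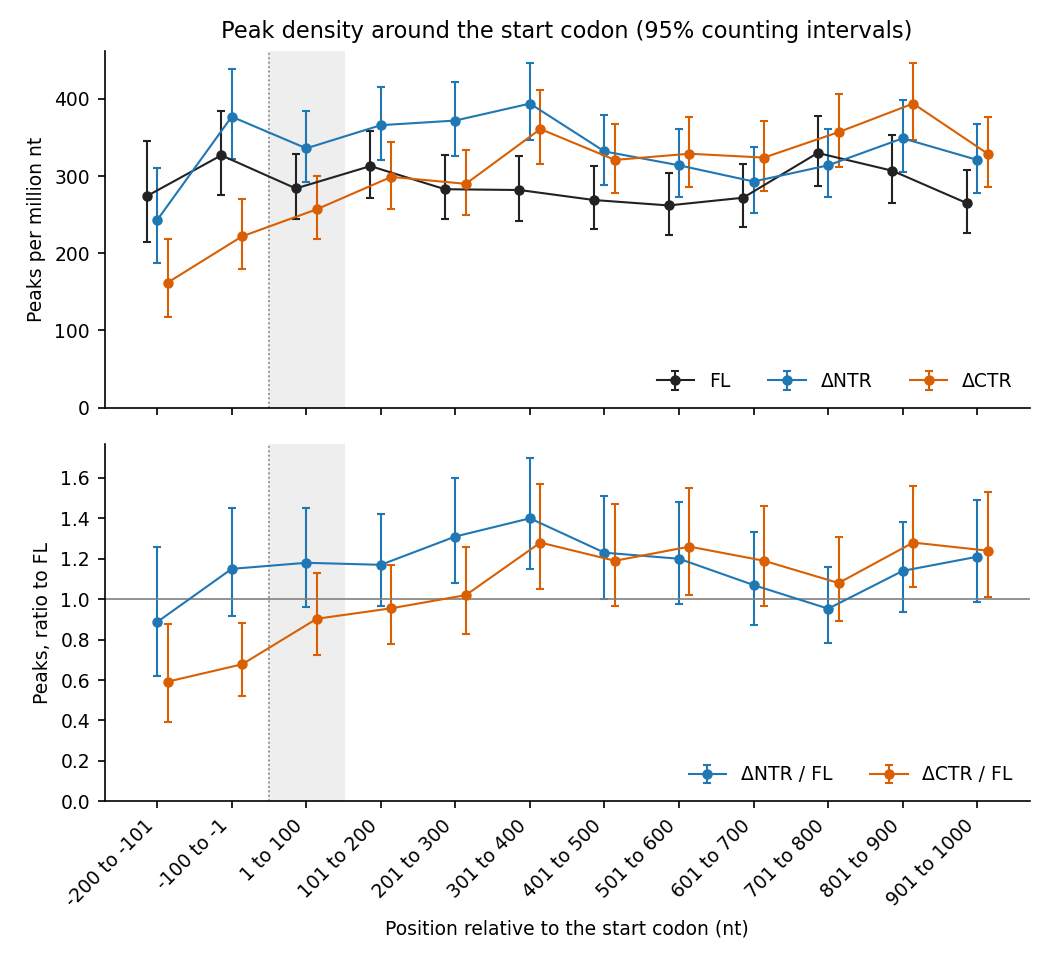
Peak density in 100 nt steps around the start codon (top, peaks per Mb) and the ratio of peak numbers to FL (bottom), in genes of at least 10 CPM and 1000 coding nt; bars are 95% counting intervals and the shaded step is coding nt 1 to 100. The ΔCTR ratio is 0.592 in the leftmost step, 0.903 in the shaded step and 1.28 at nt 301 to 400.

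Scores gave a smaller difference than counts. Summed over the members, the score came to 2608 for FL, 2496 for ΔNTR and 2369 for ΔCTR, ratios to FL of 0.957 and 0.908, where the whole lists had 0.904 and 1.16. YWHAE alone held 21.3% of the FL sum, and without it the sums were 2053, 2187 and 1876. Most members were weak, as were most peaks of the whole lists. The median member score was 3 in each list. The lowest possible score of 3 was held by 54.6% of FL, 50.3% of ΔNTR and 54.2% of ΔCTR members. Of all peaks of the same lists, 53.7%, 54.5% and 51.1% had that score. A score of at least 10 was reached by 1929 FL, 1400 ΔNTR and 2339 ΔCTR peaks of the whole lists. Among members the numbers were 35, 38 and 36. The number of strong members was thus similar in the 3 lists, whereas that of all strong peaks was lower in ΔNTR and higher in ΔCTR than in FL. Some strong FL sites nevertheless had no ΔCTR peak, with scores of 56 at VIM, 12 at CD63, 11 at B4GALT2 and AHNAK and 10 at RPS3 (the last 3 chosen after their values were seen).

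Members were spread over the window. In steps of 10 nt there were 27 to 39 FL peaks, 29 to 46 ΔNTR peaks and 15 to 31 ΔCTR peaks, and 47.3% (41.9 to 52.8), 48.9% (43.7 to 54.0) and 51.2% (45 to 57.5) of the peaks lay in the first 50 coding nt. At the edge of the window, 32 FL peaks had centres in the last 10 nt and 42 in the 10 nt beyond it, with a median score of 3 in both. In the 10 nt before the start codon there were 26 FL peaks, and 29 in the first 10 coding nt, with a median score of 4 in both. Median scores on the inner and outer side of the 3' boundary were 4 and 3 in ΔNTR and 4 in both in ΔCTR, and at the start codon 4 and 5 in ΔNTR and 4 and 3 in ΔCTR.

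Strong peaks recurred between lists and weak ones mostly did not, as in the lists as a whole. Of the 317 FL members, 113 (35.6%, 30.6 to 41.1) shared at least 1 nt with a ΔNTR peak, against 35.3% of all FL peaks, and 100 (31.5%, 26.7 to 36.9) with a ΔCTR peak, against 37.9% of all FL peaks. The ΔNTR share was close to that of the whole list, and the share of the whole list lay above the ΔCTR interval. In the other direction, FL peaks overlapped 30.4% (25.9 to 35.4) of ΔNTR members, against 30.1% of the list, and 41.2% (35.2 to 47.6) of ΔCTR members, against 34.4% of the list. Between the deletions, 26.8% (22.5 to 31.6) of ΔNTR members met a ΔCTR peak (31.8% of the list) and 38.8% of ΔCTR members a ΔNTR peak (34.0% of the list). The fewer ΔCTR members were thus shared at least as often as other ΔCTR peaks. Among FL members with a score of 3, 16.2% (11.4 to 22.4) met a ΔNTR peak and 12.1% (8.08 to 17.8) a ΔCTR peak, against 17.0% and 18.1% of all FL peaks with that score. Among the 35 with a score of at least 10, they were 91.4% (77.6 to 97.0) and 85.7% (70.6 to 93.7), against 88.2% and 93.2% of all such FL peaks. ΔLa-module peaks overlapped 3 of the 317 (0.946%, against 1.08% of all FL peaks) and ΔNTD peaks 0, which allows a share of up to 0.946% (3 counts of 317; 0.502% of all FL peaks). A peak at the start was found in all 3 lists for 69 of the 590 genes.

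Most mRNAs whose FL peak was not met by a peak of the deletion had one elsewhere. FL members that no ΔCTR peak overlapped lay in 203 genes, and 151 of these (74.4%) had a ΔCTR peak on the same transcript, 28 of them at another position in the window, 116 in later coding sequence and 107 in the 3'UTR. For ΔNTR the numbers were 139 of 193 genes (72.0%), 30 in the window, 92 in later coding sequence and 90 in the 3'UTR. Over all FL peaks on transcripts the same shares were 71.5% of 3456 genes and 68.2% of 3628, so the member genes were close to the rest. Few member genes differed 2-fold in input level. Of 573 with at least 10 CPM, 0 in the FL line, 6 in the ΔNTR line and 1 in the ΔCTR line were at least 2-fold from the parental line. Of all 9394 genes, 0.0213%, 0.458% and 0.0319% were, for ΔNTR and ΔCTR a smaller share than among the member genes. These values rest on 1 input library per line, and the part of mRNA level in the peaks was not tested.

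Site scores were compared where FL and the deletion together reached 10, with a pseudocount of 1. Against FL, 27 of 84 sites (32.1%, Wilson interval 23.1 to 42.7) were at least 2-fold lower in ΔCTR, where 15.0% of all sites of the lists were, and 12 (14.3%, 8.37 to 23.3) at least 2-fold higher, where 25.7% of all sites were. The median log2 ratio was -0.27 at the start of coding sequences and 0.22 over all sites. Start-of-CDS sites therefore leaned downward in ΔCTR where the list as a whole leaned upward. In ΔNTR, 21 of 97 sites (21.6%, 14.6 to 30.8) were at least 2-fold lower, where 31.8% of all sites were, and 22 (22.7%, 15.5 to 32.0) at least 2-fold higher, where 14.9% of all sites were. The median was -0.13, against -0.42 over all sites. With scores divided by the list totals, 29 and 9 sites were lower and higher in ΔCTR (all sites, 18.0% and 17.9%), and 17 and 23 in ΔNTR (all sites, 25.0% and 15.8%).

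At the 74 sites with a peak in all 3 lists, the summed score came to 1888 for FL, 1470 for ΔNTR and 1782 for ΔCTR. The ΔNTR ratio was 0.779 and the ΔCTR ratio 0.944, where all 3338 such sites of the lists gave 0.693 and 1.12. Without YWHAE the ratios were 0.871 and 0.967.

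The strongest member was in YWHAE, which encodes a phosphoprotein-binding adaptor. The site spanned chr17:1400078-1400097 on the minus strand, centred on coding nt 23, with a score of 555 for FL, 309 for ΔNTR and 493 for ΔCTR. It was 20 nt wide at most and held 90.2%, 76.3% and 91% of the score of the whole transcript in the 3 lists. The 30 nt around its centre occur at 1 other place in the genome, in the processed pseudogene YWHAEP5, and reads of the 2 copies cannot be told apart from the lists.

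SLC20A1, a sodium-dependent phosphate transporter, was next. Its peak at chr2:112646915-112646940, centred on coding nt 99 or 100, reached 113 with FL, 39 with ΔNTR and 253 with ΔCTR, log2 ratios to FL of -1.51 and 1.16. It was thus among the 4 genes with the lowest ΔNTR to FL ratio, and the highest of the 3 values was in ΔCTR. Its PE150 input was 1020, 817 and 933 CPM in the same lines, a narrower range than that of the score.

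RPS20, a protein of the small ribosomal subunit, had scores of 63 (FL), 109 (ΔNTR) and 107 (ΔCTR) at coding nt 77 to 78. Both deletions were higher than FL there.

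FOSL1, a transcription factor of the AP-1 family, held 125, 52 and 83 in the window. In FL and ΔNTR the signal was split into a peak at coding nt 8 or 7 (74 and 38) and a second at nt 60 or 75 (51 and 14), which in ΔCTR were covered by a peak 114 nt wide.

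FA2H, a fatty acid hydroxylase, had scores of 109 (FL), 75 (ΔNTR) and 46 (ΔCTR) at coding nt 80, yet its PE150 input had 0, 1 and 0 counts in these lines. This was the only peak on the FA2H transcript in each list. The 21 nt around its centre occur nowhere else on the main chromosomes. Per 1000 input counts, with a floor of 3 counts, its score was at least 36300 in FL, at least 25000 in ΔNTR and at least 15300 in ΔCTR. The next highest by this measure were SMIM19 with 39.3, 22.2 and 29.9, YWHAE with 24.6, 15.3 and 22.4, NDUFA2, a subunit of respiratory complex I, with 20.5, 8.13 and 18.5, and ROMO1, a small mitochondrial membrane protein, with 26.9, 7.86 and 8.61. What the FA2H signal came from was not tested.

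KCNMA1 and NT5DC2 ranked among the highest ratios only because of where the window ended. KCNMA1, the pore-forming subunit of a calcium-activated potassium channel, counted 4, 58 and 96 in the window, but its FL peak of score 78 was centred 1 nt beyond the window, and the whole site scored 78, 58 and 85. NT5DC2 counted 3, 7 and 68, and its site scored 41, 33 and 68. The site values depend less on the edge of the window, and over them the 3 lists lay closer together.

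Cytoskeletal and matrix mRNAs followed. VIM, an intermediate filament protein, had its FL peak of score 56 on the start codon and ΔNTR peaks of 36 and 4, together 40 at that site, whereas ΔCTR had no peak there and a peak of 12 at coding nt 97. Summed over the window, VIM had 56, 48 and 12, a log2 ratio of -2.13 for ΔCTR, with an input of 7070, 7990 and 7340 CPM. COL5A1, a fibrillar collagen chain, scored 50, 37 and 25, and its window held 70.4%, 69.8% and 64.1% of the score of the transcript. MMP2, a secreted matrix metalloprotease, scored 7, 51 and 14, the second highest ΔNTR ratio (log2 2.7), with a ΔNTR peak 126 nt wide. WDR1, a cofactor of actin disassembly, scored 45, 41 and 37, within a narrow range in all 3 lists.

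Among genes with a joint score of at least 20, the lowest ΔNTR ratios were in CAMK2N1 (19 in FL, 4 in ΔNTR), ROMO1 (18 and 5), ASPH (26 and 8) and SLC20A1, and the highest after KCNMA1 and MMP2 were in LDHA (4 and 20) and LGALS1 (4 and 19). The lowest ΔCTR ratios were in CAMK2N1 (19 in FL, 3 in ΔCTR), VIM, FIBP (28 and 8, with a further ΔCTR peak of 3 centred 1 nt beyond the window) and ROMO1 (18 and 6). CAMK2N1 and ROMO1 were thus low in both deletions. The highest ΔCTR values beside KCNMA1 and NT5DC2 were in PABPC1, the cytoplasmic poly(A)-binding protein, with 0 in FL and 22 in ΔCTR, and RPS21, with 4 and 16. PABPC1 had an FL peak of 8 centred 1 nt beyond the window, at a site with a ΔCTR score of 11, and its other ΔCTR peak of 11, near the start codon, was met by none in FL. The others of the 20 highest genes, S100A6, COL1A2, CD63, RNH1, PLPPR2, PPP1CC, PFN1 and HTRA1 among them, had summed scores of 51 to 98.

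**Figure D3:**
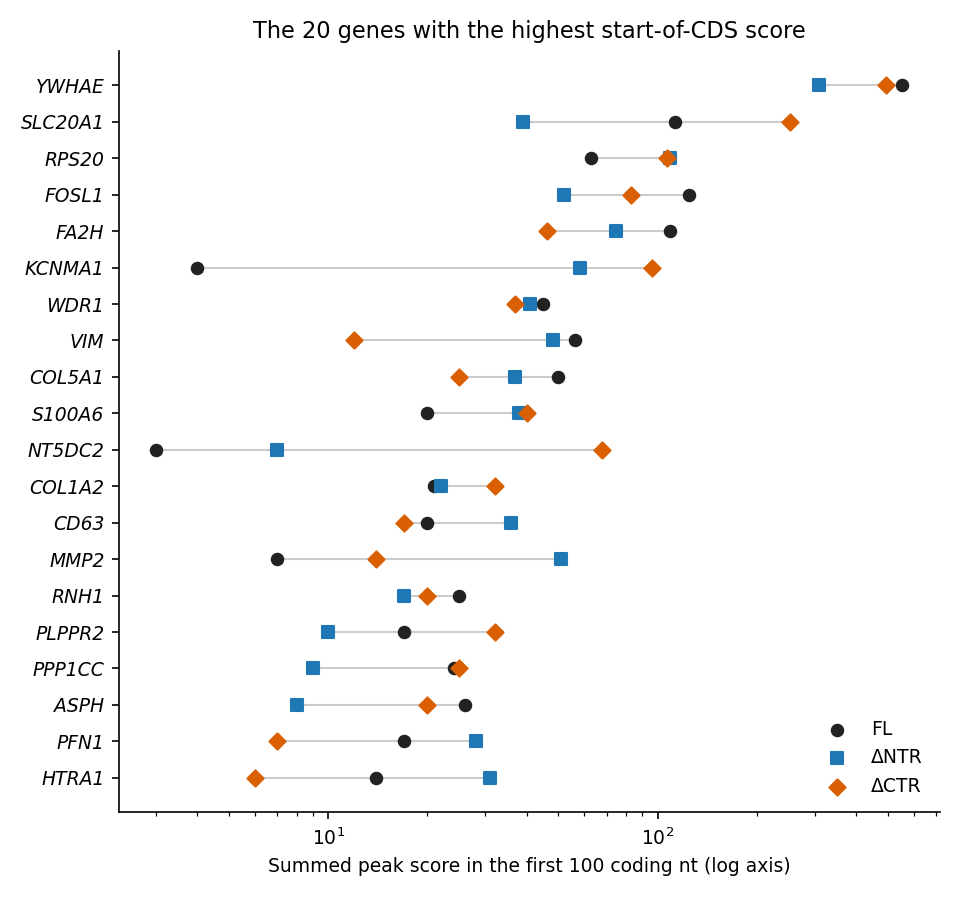
Summed start-of-CDS score of the 20 highest genes in FL, ΔNTR and ΔCTR on a log axis; each row is a gene and the grey line joins its lowest and highest value. All 20 genes have a value in each list, from 3 (NT5DC2, FL) to 555 (YWHAE, FL).

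Type I collagen mRNAs, the best known LARP6 targets, carried their strong peaks just before the window. On COL1A2, peaks centred 49 to 50 nt before the start codon had scores of 98 (FL), 46 (ΔNTR) and 107 (ΔCTR), and peaks centred 8 nt before it scored 35, 25 and 27. The first peaks inside the coding sequence, at nt 22 to 32, scored 18, 16 and 32. On COL1A1 the peaks at 42 to 51 nt before the start codon scored 92, 39 and 111, those at 2 to 9 nt before it 43, 12 and 33, and every peak in the window scored 3 or 4. COL3A1, the third mRNA with the stem-loop, was below 10 CPM and had no peak there. Around the start codon of both mRNAs the score was higher before than after it, and ΔNTR was the lowest of the 3 lists at each of these 4 peaks before it. PE150 input was lowest in ΔNTR too, with 733, 628 and 1000 CPM (FL, ΔNTR, ΔCTR) for COL1A1 and 684, 584 and 720 for COL1A2. Over all 3338 sites with a peak in all 3 lists, the ΔNTR to FL ratio of summed scores was 0.693. The part of mRNA level in the collagen scores was not tested.

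More abundant mRNAs carried members more often. In any of the 3 lists, a peak at the start was found for 2.10% of genes with 10 to 50 CPM, 5.01% with 50 to 100, 13% with 100 to 500 and 39.9% with 500 or more, and for 6.31% of all genes with at least 10 CPM. The median PE150 level of genes with an FL member was 162 CPM, against 114 for genes with later FL coding peaks. Genes with an FL peak in the 5'UTR, more than 50 nt from the 5' end, were close to the member genes, with a median of 150 CPM. Counts per gene family are therefore to be read beside the abundance of the family. Ribosomal protein genes had members in 24 of 80 (median 361 CPM), among them RPS20, RPS21 and RPS12. Endoplasmic reticulum chaperones and folding enzymes had them in 8 of 19 (median 260 CPM), led by P4HB, PDIA6, PLOD2 and CALR, and genes of secreted and matrix proteins in 11 of 28 (median 313 CPM), with MMP2, FN1 and IGFBP3 among them. Cytoskeletal genes had members in 11 of 27 (median 660 CPM), integrins and other membrane proteins in 9 of 24 (median 450 CPM) and glycolytic enzymes in 5 of 14 (median 515 CPM). Elongation factors and other mRNAs with a terminal oligopyrimidine start had them in 5 of 15 (median 513 CPM). The same count, 5 of 15, held for collagens other than those with the stem-loop (median 106 CPM). Members were found in 2 of 16 heat shock protein genes (median 341 CPM), 4 of 31 hnRNP and SR protein genes (median 215 CPM), 11 of 76 nuclear respiratory chain genes (median 57.6 CPM) and 1 of 7 genes of the LARP family (median 92.6 CPM). Differences between the families were not tested, and several rest on few genes.

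Genes with a peak at the start encoded hydrophobic N termini more often than other genes. An N terminus was called hydrophobic when 8 consecutive residues within residues 1 to 30 had a mean Kyte-Doolittle value of at least 2.2, which takes in signal sequences and N-terminal membrane anchors but is not a signal peptide prediction. This held for 70 of 275 FL genes (25.5%, Wilson interval 20.7 to 30.9), 88 of 327 ΔNTR genes (26.9%, 22.4 to 32.0) and 57 of 217 ΔCTR genes (26.3%, 20.9 to 32.5). Among genes of at least 10 CPM with later coding peaks and no peak at the start in any of the 3 lists, the shares were 16.3% (14.7 to 18.1) of 1794, 16.6% (15.0 to 18.4) of 1883 and 17.7% (16.1 to 19.5) of 2036. Among all 9082 genes of at least 10 CPM the share was 16.1%. Genes with a member had the higher share in each of the 3 lists, with no overlap of intervals, and the 3 lists share genes and are not independent.

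The difference kept its direction among abundant mRNAs, with narrower gaps between intervals. With at least 100 CPM, 24.6% (18.7 to 31.5) of 171 FL genes had a hydrophobic N terminus, against 16.2% (14 to 18.7) of 938 genes with later coding peaks alone. In ΔNTR it was 27.4% (21.9 to 33.8) against 15.3% (13.2 to 17.7), and in ΔCTR 25.8% (19.6 to 33.2) against 16.6% (14.5 to 18.9). The FL intervals touch and the others do not. Genes with a 5'UTR peak and no peak at the start had shares of 22.6% (17.6 to 28.6) in FL, 16.8% (12.8 to 21.8) in ΔNTR and 14.1% (9.41 to 20.6) in ΔCTR, and only the ΔNTR and ΔCTR intervals lie apart from those of the member genes. Examples among the 20 highest genes are COL5A1, COL1A2, MMP2, CD63 and HTRA1, all secreted or membrane proteins, and SLC20A1 and PLPPR2, membrane proteins. S100A6, a cytosolic calcium-binding protein, also passed the threshold, and VIM, FOSL1 and YWHAE did not.

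**Figure D4:**
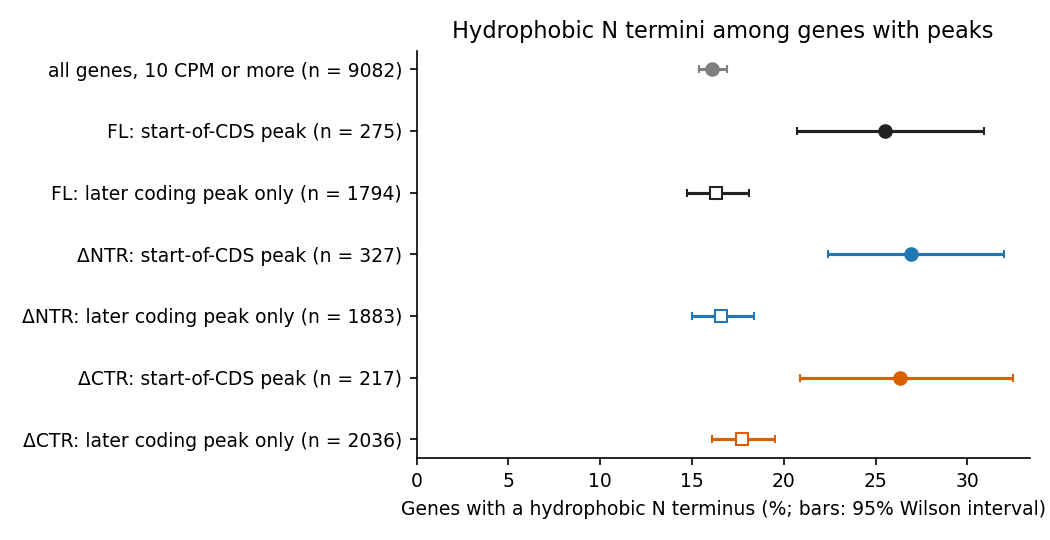
Percentage of genes with a hydrophobic N terminus, with 95% Wilson intervals; filled circles are genes with a start-of-CDS peak, open squares genes of at least 10 CPM with later coding peaks only, and the grey circle all genes of at least 10 CPM. The filled circles lie at 25.5 to 26.9% and the open squares at 16.3 to 17.7%.

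Codons for strongly hydrophobic residues carry U at their middle position, and base composition moved with this feature. In the window of hydrophobic genes of at least 10 CPM, C and T made up 53.4% of the 31 nt around each position and T alone 23.4%, against 45.7% and 18.5% in other genes. Around the peaks themselves the C and T share was 55.8%, 57.0% and 54.5% (FL, ΔNTR, ΔCTR) in hydrophobic genes and 47.7%, 49.5% and 47.6% in others. Within each class, peaks thus lay in slightly more pyrimidine-rich sequence than the windows of all genes of at least 10 CPM. Windows of the member genes themselves were not compared by class. The part of composition in the higher share of hydrophobic N termini was not tested.

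Over all members, the C and T share of the 31 nt around the centre was 50.0% ± 11.2 (SD over 317 peaks) in FL, 51.5% ± 11.2 (358 peaks) in ΔNTR and 49.4% ± 11.5 (240 peaks) in ΔCTR. Over every position of the window in the same genes it was 48.6%, 49.1% and 48.9%, and over the windows of all genes of at least 10 CPM 47.0% ± 11.6. Members were above the windows of their own genes in each list, by far less than the SD between peaks. Pyrimidine-rich windows, with at least 70% C and T, made up 4.42% of FL members. The share was 3.98% over all window positions of the same genes and 3.06% of later FL coding peaks. It was higher in FL 5'UTR peaks (13.2%) and FL 3'UTR peaks (10.7%). G and C made up 59.6% around FL members, between the 67.3% of 5'UTR peaks and the 52.2% of later coding peaks, and close to the 59.7% of the same windows as a whole.

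Predicted folding did not single out the bound positions. The minimum free energy of the 61 nt around the centre was -17.0 ± 6.78 kcal/mol in FL (SD, 317 peaks), -16.8 ± 6.81 in ΔNTR and -16.7 ± 6.57 in ΔCTR. Other positions of the same windows gave -16.9, -17.2 and -16.6, differences far below the SD. Later coding peaks were less stable, with -13.5 ± 5.64 in FL. These later peaks lay largely in other genes, and later positions without a peak were not folded.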

How the data were processed

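iCLIP with an antibody to the myc tag and input RNA sequencing were done in 6 U-87 MG lines (18 iCLIP samples, 12 input libraries). As the study's methods describe, reads were trimmed, cleared of rRNA and tRNA with Bowtie2, aligned with STAR 2.7.10b to GRCh38.p13 and collapsed with UMI-tools, and peaks were called per replicate. The deposited score of a peak was summed by the authors over 3 replicates, without scaling to depth, and peaks of parental cells were subtracted. Input tables hold raw gene counts deposited by the authors, from which CPM was computed here on the strand with at least 4 times more counts. These deposited counts were turned into CPM over gene rows only, and 34.4 to 37.8% of PE150 and 62.3 to 71.8% of SE50 reads in the tables lay in rows that name no gene.

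Peaks were placed on canonical transcripts of GENCODE 44, whose release differs from that of the authors, with Python 3.11.15, pandas 2.3.3, numpy 2.4.6 and scipy 1.17.1. Peaks sharing at least 1 nt on 1 strand formed a site, and 73 of the 687 member sites (10.6%) had another exact copy of their central 21 nt in the genome. Site ratios used a pseudocount of 1, folding used RNAfold 2.7.2, and intervals are Poisson, binomial or Wilson intervals of 95%. The code was tested on simulated data. The named genes were the 20 with the highest summed score, the 4 with the highest and the 4 with the lowest ratio of each deletion to FL among those with at least 20 in both lists together, the 5 with the highest score per 1000 input counts, and up to 4 examples per gene list. POLDIP2, PDE12, UBA2 and PIGG are named for their sequences by rank. The members and gene lists were chosen with earlier results of these data known. Alternatives covered the score minimum, the window, the overlap, the scaling of scores, the input library and the hydrophobicity threshold.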

Additional observations from a re-analysis of the deposited data

How the results depend on the processing

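Of 88 alternative values for 26 results, 59 stayed within the counting interval or within 1.5 times the count, and 29 moved. Restricting to scores above 3 gave 144 FL, 178 ΔNTR and 110 ΔCTR peaks, the first 50 coding nt 150, 175 and 123 (ΔCTR to FL ratio 0.82, 0.641 to 1.05, which includes 1), and the first 200 coding nt 646, 742 and 563 (ΔNTR ratio 1.15, 1.03 to 1.28, which excludes 1). The start-to-interior density ratio of ΔNTR went from 0.989 to 1.16 (0.941 to 1.42) with scores above 3 and 1.21 with summed scores. It thus moved to the other side of 1. That of FL did so too, from 0.99 to between 1.02 and 1.06 with scores above 3, summed scores or genes of at least 100 CPM. That of ΔCTR went from 0.769 to 0.924 with summed scores and stayed below 1. The cause was not tested. The share of FL members overlapped was 22.7% for ΔNTR and 22.7% for ΔCTR when at least 50% of both peaks had to overlap, and 49.3% and 41.0% with scores above 3 in both lists. At sites with a peak in all 3 lists, the ΔNTR to FL ratio of summed scores was 0.861 with scores over list totals, 0.68 over the CPM of the gene and 0.871 without YWHAE, and the ΔCTR ratio 0.817 over list totals and 0.859 over CPM. The summed score per 1000 input counts was 0.83, 0.714 and 0.88 with PE150 and 521, 419 and 517 with SE50, whose counts come from short RNA. Per PE150 count ΔCTR lay above FL, whereas its summed score of 2369 lay below the 2608 of FL. The lists had members in 275, 327 and 217 genes, so the values per count do not rest on 1 set of genes. They therefore do not correct the summed ΔCTR score for mRNA abundance. A hydrophobicity threshold of 1.8 gave 36.7%, 37.0% and 36.4% of genes against 24.8% of all genes of at least 10 CPM, and 2.6 gave 19.6% in ΔNTR and 20.7% in ΔCTR against 10.4%. Restricting to sites whose 21 nt occur at 1 place in the genome gave ratios of 1.16 (0.987 to 1.37) for ΔNTR and 0.784 (0.654 to 0.94) for ΔCTR.

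The restriction to sites without a copy, for counts and for ratios, and the scaling of site calls to list totals were chosen after seeing the data. No paired analysis was possible because the lists merge the replicates and each line had 1 library of each input kind, and leaving out a replicate was not possible. The lists hold no depth, and peak number and library depth cannot be told apart between lists.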
